A study of Mus musculus with 6 samples.

Results

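The genes described here are 10 genes of the Notch pathway, examined for chromatin attached to LncMyoD, a long non-coding RNA. They comprise the receptor genes Notch1, Notch2 and Notch3, the ligand genes Dll1 and Jag1, the effector genes Hes1, Hes6, Hey1 and Heyl, and Rbpj, the gene of the DNA-binding protein of the pathway. They were taken by name from the 21887 protein-coding genes of the RefSeq table, all 10 were found there, and each was given a window of its gene span and 20 kb on either side. The windows amount to 800 kb.

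DNA attached to LncMyoD was captured by ChIRP, in which biotin-labelled DNA probes pull down an RNA together with its chromatin. The cells were primary C57BL/6 mouse myoblasts kept in 2% horse serum for 2 days, which the labels call differentiated myotubes, so the genes were read in myotubes and not in growing myoblasts. All 6 samples had this strain, cell type and treatment, and they made up 3 groups of 2, captured with odd-numbered probes, captured with even-numbered probes, or left as input DNA. The results were deposited as 1 peak list per replicate number, under a name that the labels give to all 3 samples of that replicate. Captured DNA could therefore not be compared with input or between probe sets, and the difference between the lists may be technical. Each fold, −log10 q and strongest point below is the authors' own value for a peak in a list. Counts, shares, percentiles, places and densities were derived here from the lists. The lists give DNA positions and no RNA levels, so neither the cell type nor the activity of a gene could be checked in them.

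Notch receptors are activated by ligands on a neighbouring cell, after which the cleaved intracellular domain enters the nucleus, joins Rbpj on DNA and switches on target genes. Hes1, Hey1 and Heyl are classical targets and encode bHLH repressors. In skeletal muscle, Notch signalling keeps stem cells undifferentiated and holds back MyoD-driven differentiation. Hes6 is the exception among the effectors: its product antagonises Hes1 and is known to favour muscle differentiation.

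The promoters of Notch1 and Hes6 were the listed promoters that a shared region reached, a shared region being the union of overlapping peaks with at least 1 of each list. They are shown first, with the Hes6 promoter without a peak and an Rbpj promoter without a peak for contrast. Each is the 250 bases before a RefSeq start in GRCm38.p6, the assembly of mm10, read 5′ to 3′ on the gene's strand. Capitals mark 3 motifs sought on both strands: TGGGAA, the core bound by Rbpj, CAGCTG, an E-box bound by MyoD, and CACNAG, the N-box bound by Hes proteins. The listed promoters of Notch2, Notch3, Jag1 and Dll1 also had no peak but held no TGGGAA, and they are not printed.
Notch1, chr2:26503823-26504072, minus strand, reached by a shared region: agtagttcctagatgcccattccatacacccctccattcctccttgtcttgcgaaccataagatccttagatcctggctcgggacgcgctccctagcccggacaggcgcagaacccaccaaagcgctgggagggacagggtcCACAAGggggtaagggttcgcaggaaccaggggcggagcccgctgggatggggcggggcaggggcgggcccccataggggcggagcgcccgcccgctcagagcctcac
Hes6 inner start, chr1:91413223-91413472, minus strand, reached by a shared region: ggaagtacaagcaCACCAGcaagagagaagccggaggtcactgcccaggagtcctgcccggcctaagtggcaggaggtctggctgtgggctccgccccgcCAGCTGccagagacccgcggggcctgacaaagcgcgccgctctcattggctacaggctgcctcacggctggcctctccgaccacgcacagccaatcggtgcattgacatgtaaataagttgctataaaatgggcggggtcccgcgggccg
Hes6 outer start, chr1:91414039-91414288, minus strand, no peak: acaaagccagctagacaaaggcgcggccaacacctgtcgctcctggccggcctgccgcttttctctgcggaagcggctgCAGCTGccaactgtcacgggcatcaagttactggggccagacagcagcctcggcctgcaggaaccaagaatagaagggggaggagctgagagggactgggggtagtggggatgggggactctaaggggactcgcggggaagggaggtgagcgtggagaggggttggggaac
Rbpj, chr5:53590096-53590345, plus strand, no peak: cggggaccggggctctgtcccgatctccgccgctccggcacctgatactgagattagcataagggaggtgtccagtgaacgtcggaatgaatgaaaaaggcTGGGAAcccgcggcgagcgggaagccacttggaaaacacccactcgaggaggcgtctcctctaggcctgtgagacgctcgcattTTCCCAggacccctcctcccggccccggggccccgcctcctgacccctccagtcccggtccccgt

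A shared region lay in the window of all 10 genes, and this was close to the background, as 89.6% of all protein-coding genes had a region in such a window. All 10 also had peaks of each list taken alone, against 94.7% of all genes for replicate 1 and 96.0% for replicate 2. The background grew with gene size, from 82.1% of genes under 10 kb and 91.5% of genes of 10 to 50 kb to 97.9% of genes over 50 kb. The windows of the 10 genes held 49 shared regions, from 2 at Notch3 and at Dll1 to 11 at Notch2. Of these, 23 overlapped their own gene and 26 lay outside it, of which 8 were nearer to another protein-coding gene. A shared region overlapped the span of 7 of the 10 genes, against 56.4% of all protein-coding genes. Both genes over 50 kb, Notch2 and Rbpj, and all 4 of 10 to 50 kb, Notch1, Notch3, Jag1 and Heyl, had one, against 93.2% and 63.5% of all genes of those sizes. Of the 4 genes under 10 kb, Hes6 had one and Dll1, Hes1 and Hey1 had none, against 25.4% of all such genes.

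**Figure D1:**
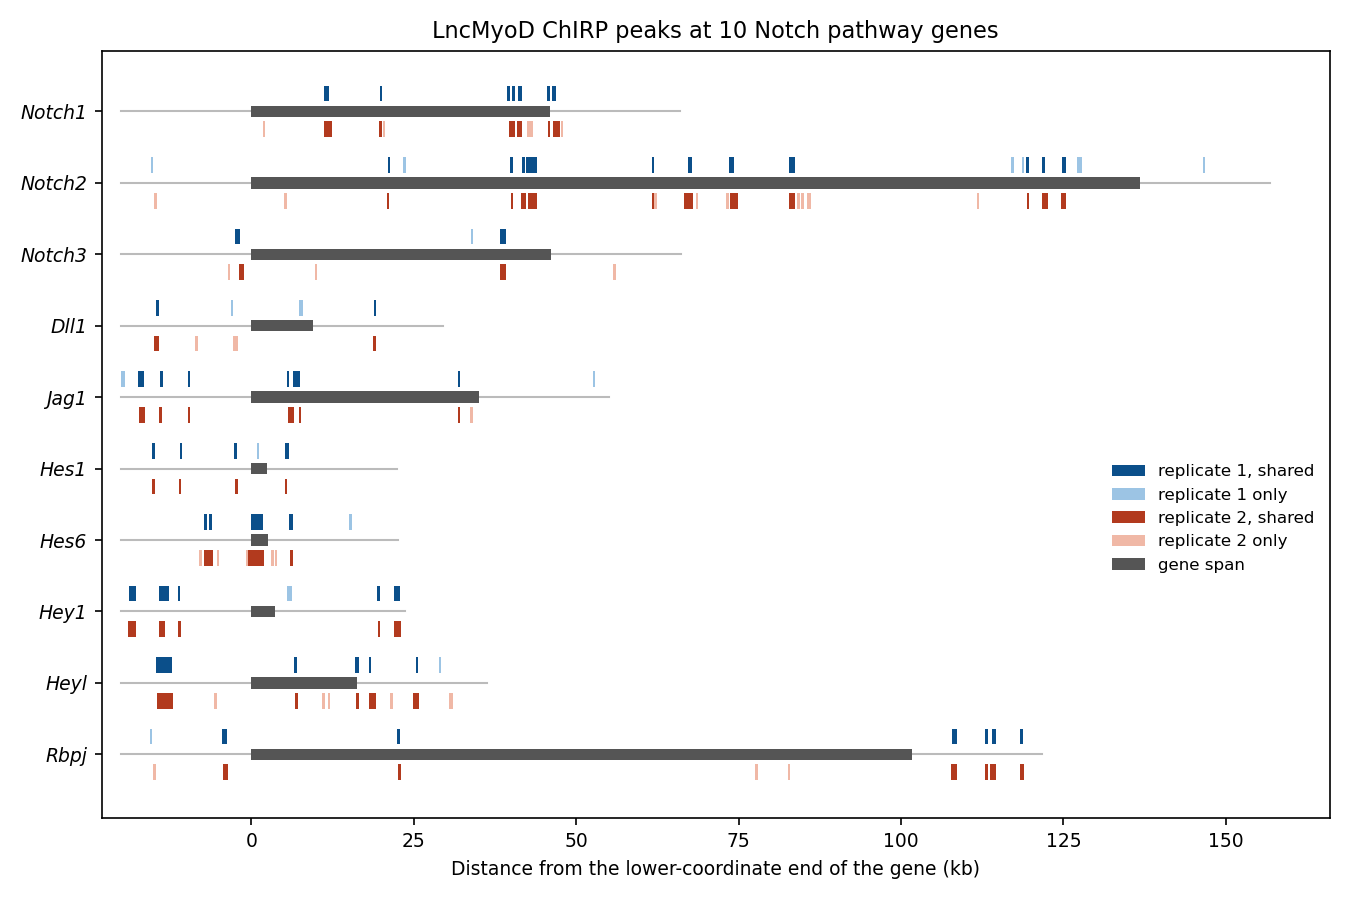
Peaks of replicate 1 (above each gene) and replicate 2 (below it) along the windows of the 10 genes, in kb from the end of the gene with the lower coordinate and in the direction of the chromosome. Dark marks are peaks that overlap a peak of the other list, pale marks are peaks of 1 list only, very narrow peaks are widened to be visible, and the 11 shared regions of Notch2 all lie inside the gene.

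The lists matched in these windows about as they did elsewhere. Of the 68 peaks of replicate 1 in the windows, 52 (76.5%, 95% exact Clopper-Pearson interval 64.6 to 85.9%) overlapped a peak of replicate 2, against 67.2% of the 157214 peaks of the whole list. Of the 83 peaks of replicate 2, 51 (61.4%, interval 50.1 to 71.9%) had a partner, against 57.8% of 179630. These intervals cover counting error only, and neighbouring peaks are not independent. The strongest points of the matching peaks lay a median of 63 bp apart in the windows and 74 bp apart over all shared regions on assembled chromosomes. They were within 200 bp of each other in 38 of the 49 regions (77.6%), against 77.2% of 97115 regions.

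In strength and width the 49 regions also resembled the rest. Fold enrichment is the authors' ratio of signal at the strongest point of a peak to the background estimated by the peak caller, and it is read within a list. The mean percentile of a region averages, for its best peak in replicate 1 and in replicate 2, the percentile of −log10 q within the list. The median fold of the best peak was 10.6 in replicate 1 and 12.4 in replicate 2, against 11 and 12 over all shared regions. Both lists reached at least 20-fold at 10 of the 49 regions (20.4%), against 20.5% of all regions. The median width was 838 bp, against 749 bp.

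**Figure D2:**
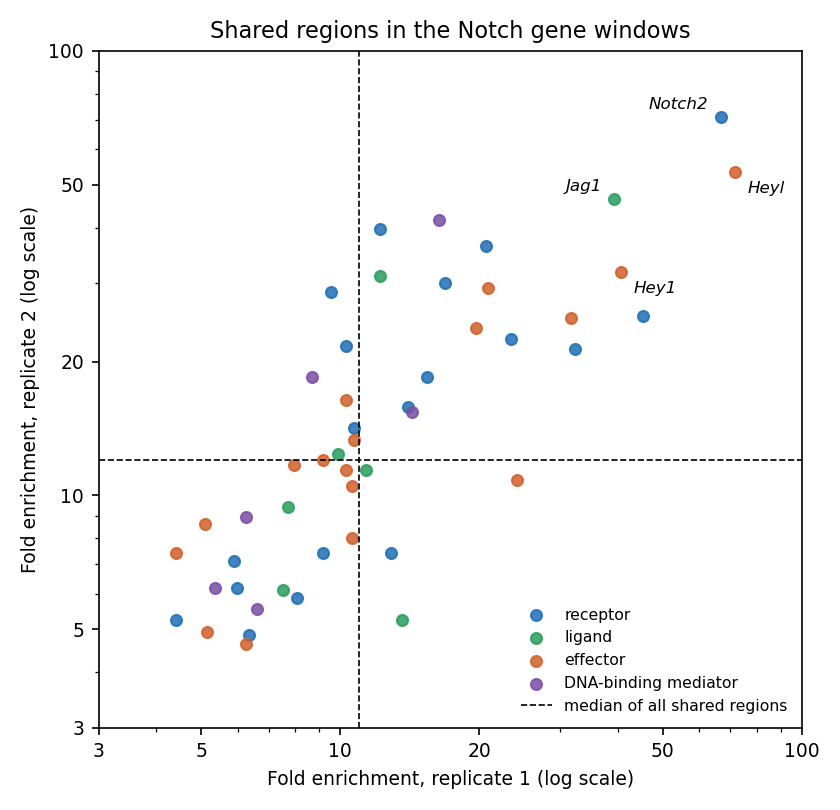
Fold enrichment of the 49 shared regions in replicate 1 and replicate 2, on log scales, coloured by the role of the gene. Dashed lines are the medians of all shared regions (11 and 12), and gene names mark the best region of a window where its mean percentile is at least 90, among them Notch2 (66.8 and 71.0) and Heyl (71.6 and 53.4) at the upper right.

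Density per length of window gave another order than the count. The window of Notch3 held 2.32 regions per 100 kb, and it was followed by Dll1 with 4.03, Rbpj with 4.24, Notch2 with 6.22, Jag1 with 6.66, Notch1 with 6.98, Hes6 with 7.05, Heyl with 8.88, Hes1 with 9.43 and Hey1 with 11.45. The median over the 10 genes was 6.82, against 4.27 over all protein-coding genes, whose 25th and 75th percentiles were 2.24 and 6.66. The 4 effector genes were the densest of the 10, at percentiles of 78.3 to 95.2 among all genes. Within genes of their own size class they stood at percentiles of 74.3 to 92.5, but they were not all ahead of the other genes there. Notch2, at 84.3, and Notch1, at 75.1, stood above Hes6, at 74.3. At Hes1 and Hey1 every region of the window lay outside the gene. As the effector windows hold 3 to 5 regions each, the order by density rests on few regions, and no neighbours in it were separated by a test.

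**Figure D3:**
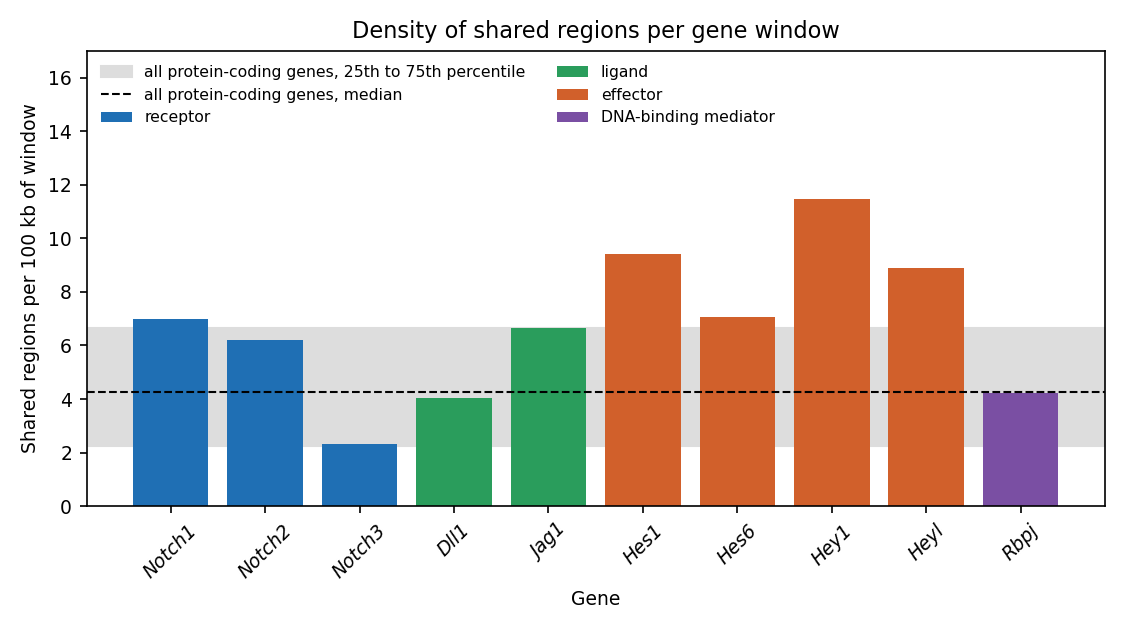
Shared regions per 100 kb of window for each of the 10 genes, coloured by role. The grey band spans the 25th to 75th percentile of all protein-coding genes (2.24 to 6.66), the dashed line is their median (4.27), and the bars of Notch1, Hes1, Hes6, Hey1 and Heyl reach above the band.

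Among the receptors, Notch2 carried the region with the highest mean percentile of the 10 genes. All of its 11 shared regions lay inside the gene (chromosome 3, 98013538 to 98150367, plus strand), at 8.04 per 100 kb of gene. That density was at percentile 93.0 of the 4945 genes over 50 kb, whose median was 3.49. The strongest region, from 98055846 to 98057544, lay 42308 bp inside the gene start and had folds of 66.8 in replicate 1 and 71.0 in replicate 2. Its strongest point was at the same base, 98056400, in both lists, and it took place 751 among the 97115 shared regions ordered by mean percentile. The region closed a run of 3 regions, after those from 98053354 to 98053891 (14-fold and 15.8-fold) and from 98055116 to 98055789 (15.4-fold and 18.5-fold).

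Toward the far end of Notch2, the region from 98132808 to 98133270 had folds of 45.2 and 25.3. In the middle of the gene, regions from 98080090 to 98081602 (32.3-fold and 21.3-fold) and from 98096286 to 98097244 (16.9-fold and 30-fold) were also above the median in both lists. The region of the gene with the lowest mean percentile, from 98034389 to 98034949, had folds of 6.35 and 4.85. The first 20851 bp of the gene and the 20 kb before it held no shared region, although the lists each had a peak before the gene, 111 bp apart, at 15.4-fold in replicate 1 and 7.41-fold in replicate 2.

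Notch1, a receptor with a central role in muscle stem cells, had 6 shared regions, of which 2 lay within 1 kb of its start. The region from 26504207 to 26505406 on chromosome 2 lay 385 bp before the gene, at 20.7-fold and 36.4-fold, over the long non-coding RNA gene Gm35978. A second, weak region from 26503460 to 26503863 covered the start itself, at 4.41-fold and 5.25-fold. Of the 250 promoter bases printed above, the peak of replicate 1 covered the last 41 before the start, and the peak of replicate 2 ended 60 bp short of them. The other regions lay inside the gene. A pair near the start had folds of 12.9 and 7.41 (26498792 to 26499629) and of 8.08 and 5.87 (26497328 to 26498558), and a weak one had folds of 5.88 and 7.10. In the region from 26497328 to 26498558 the strongest points of the best peaks lay 839 bp apart.

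The remaining region of Notch1, from 26469113 to 26470387, had folds of 10.3 and 21.7 and covered the microRNA gene Mir6996, which lies within Notch1. Its mature products are given with the seed, bases 2 to 8, in capitals, because they mark the transcribed unit under this region, and their seeds differ.
mmu-miR-6996-5p, chr2:26470094-26470114, minus strand: uGCACAGGacagagcacaguc
mmu-miR-6996-3p, chr2:26470059-26470081, minus strand: cGGUGUCUcuggucacucugcag
The strongest points of the peaks, 26469566 and 26469565, lay 1 bp apart and outside the microRNA, which the peak of replicate 2 reached and that of replicate 1, ending at 26469939, did not.

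Notch3, a receptor expressed in muscle stem cells and vessel walls, had the sparsest window. It held 1 shared region inside the gene on chromosome 17 (32159117 to 32160106), 6790 bp from the start, with folds of 23.5 and 22.5. The other, from 32118358 to 32119772, lay 1048 bp beyond the gene's far end and over the long non-coding RNA gene Gm38585, with folds of 12.2 and 39.8. The best peaks of the lists overlapped there by only 41 bp, with strongest points 651 bp apart. Between these regions lay 39344 bp without a shared region. No peak of either list came closer than 6785 bp to the listed Notch3 promoter.

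Of the ligand genes, Jag1 (chromosome 2, 137081451 to 137116520, minus strand) had 5 shared regions and Dll1 had 2. The strongest in the Jag1 window had folds of 39.3 and 46.3, but it lay 16320 bp beyond the gene's far end and inside Slx4ip, which neighbours Jag1 (137064029 to 137065131). A further 2 regions of the window also lay inside Slx4ip, at 13.6-fold and 5.25-fold and at 7.71-fold and 9.41-fold. Jag1 itself held a wide region of 2106 bp (137086960 to 137089065), at 12.2-fold and 31.2-fold, and a narrow one of 206 bp near its start, at 7.52-fold and 6.11-fold. The wide region joined 2 peaks of each list. The best peaks of the lists overlapped there by only 104 bp, with strongest points 268 bp apart. Dll1, which encodes a ligand that maintains muscle stem cells, had no shared region over the gene (chromosome 17, 15367354 to 15376932). Its regions lay 9237 bp before the start (11.4-fold and 11.4-fold) and 14126 bp beyond the far end (9.92-fold and 12.4-fold, over the long non-coding RNA gene Gm10510). A replicate 1 peak of 6.98-fold inside Dll1 (15374635 to 15375341) had no partner.

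Among the effectors, Hes6 was covered over most of its length. The region from 91411054 to 91413409 on chromosome 1 spanned 2356 bp at the gene of 2556 bp (91411483 to 91414038, minus strand) and had folds of 31.6 in replicate 1 and 25 in replicate 2. The best peaks of the lists overlapped by 1935 bp, and their strongest points lay 31 bp apart. Of the promoter bases before the inner start, printed above, the peak of replicate 1 covered 145 and that of replicate 2 covered 187. Before the outer start no base was covered, and the nearest peaks lay 672 bp away in replicate 1 and 303 bp away in replicate 2. The other regions of the window lay 5943 bp beyond the gene's far end (10.6-fold and 8.03-fold) and inside Per2, a circadian clock gene (10.7-fold and 13.3-fold). The first of these was nearer to the gene Ilkap, at 5317 bp. Replicate 2 alone had 5 further peaks in this window, the highest at 16.1-fold.

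At Hes1, the classical Notch target, all 4 shared regions lay outside the gene (chromosome 16, 30065357 to 30067796), and all had folds below the medians of all shared regions in both lists. On the side of lower coordinates the nearest lay 2080 bp away (4.41-fold and 7.41-fold), and on the other side 2689 bp away (10.3-fold and 11.4-fold). Farther out, regions at 10812 bp and 14772 bp had folds of 5.14 and 4.94 and of 7.96 and 11.7. Inside Hes1 there was a single peak, of replicate 1, at 3.58-fold and in the weakest 1.66% of its list by −log10 q. With a mean percentile of 61.6, the best region of Hes1 was the weakest best region of the 10 genes, next to that of Dll1 at 63.6.

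Hey1, another target gene, had a dense but distant set of 5 shared regions. They stood in a group of 3 and a group of 2 on either side of the gene (chromosome 3, 8663359 to 8667038), and the 30177 bp between the groups held none. The strongest, from 8685336 to 8686462, had folds of 40.6 and 31.8 and strongest points 7 bp apart. It lay 18298 bp from the gene, over the long non-coding RNA gene Gm32561. Both regions of its group were nearer to the protein-coding gene LOC115489673, which overlaps Hey1, than to Hey1. On the other side, regions at 17734 bp and 12706 bp had folds of 20.9 and 29.2 and of 19.7 and 23.8. A peak of 20.9-fold in replicate 1 (8668826 to 8669671), 1788 bp from Hey1 and over the gene LOC115489673, had no partner, and the nearest peak of replicate 2 was 13130 bp away.

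Heyl, a target gene known to be active in muscle stem cells, had 5 shared regions. The strongest in its window, from 123218835 to 123221524 on chromosome 4, had folds of 71.6 and 53.4 and took place 1147 in the genome. It was 2690 bp wide, lay 12032 bp from Heyl and overlapped Nt5c1a, which encodes a nucleotidase. Over Heyl itself (123233556 to 123249870) were regions of 24.2-fold and 10.8-fold (123240159 to 123240688) and of 9.18-fold and 12-fold across the end of higher coordinate (123249587 to 123250162). A pair of regions beyond that end, at 1807 bp and 8611 bp, had folds of 5.11 and 8.63 and of 10.3 and 16.4.

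Rbpj, which mediates transcription downstream of all Notch receptors, had little signal inside the gene. Its span of 101667 bp on chromosome 5 (53555779 to 53657445, plus strand) held 1 weak shared region, from 53578238 to 53578662, at 5.37-fold and 6.18-fold. At 0.98 regions per 100 kb of gene, 9.61% of the 4945 genes over 50 kb were as sparse or sparser. No shared region lay in the 84761 bp from 53578663 to 53663423, a stretch that takes in both listed promoters, and replicate 2 alone had 2 peaks there (6.18-fold and 8.03-fold). The strongest region of the window lay before the gene span, 3621 bp from its end of lower coordinate (53551284 to 53552158), with folds of 16.4 and 41.7. Beyond the other end a group of 4 regions had folds of 6.24 to 14.3 in replicate 1 and 5.56 to 18.5 in replicate 2.

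Within 1 kb of gene ends the share was close to the background. A shared region came within 1 kb of an end of 3 of the 10 genes, Notch1, Hes6 and Heyl, against 27.0% of all protein-coding genes. Of the 7 genes with a listed promoter, Notch1 and Hes6 had a shared region in the 250 bases before a start, against 10.5% of the 17492 protein-coding genes with a listed promoter. This share rests on 2 genes and was not tested, and at Notch1 only the replicate 1 peak, at 4.41-fold, covered promoter bases. Hes1, Hey1 and Heyl had no listed promoter. Among the 10 promoters of these 7 genes, TGGGAA occurred in 2, which are overlapping promoters of Rbpj, while 21.6% of all 32851 listed promoters held it. CAGCTG occurred in 4 promoters, those of both Hes6 starts, of Jag1 and of Dll1, against 13.0% of all, and CACNAG in 4, against 36.7% of all. The E-box was present both in the Hes6 promoter that a shared region reached and in the one that none reached. In the reached promoter it lay within the replicate 2 peak, while the replicate 1 peak reached only its last base. The N-boxes of the reached Notch1 and Hes6 promoters lay outside the peaks. Promoters of Notch2 and Notch3, which no peak reached, also held an N-box.

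The strongest region per window was compared with that of 48 other genes of the pathway, chosen by role. The best region reached a mean percentile of 90 or more in 4 of the 10 windows (Notch2, Heyl, Jag1 and Hey1), in 25 of the 48 other windows and at 36.0% of all protein-coding genes. Of these 4 regions, only that of Notch2 lay over its own gene. Those in the windows of Heyl, Jag1 and Hey1 were nearer to another protein-coding gene. The median of the best region was 89.2 over the 10 genes, 91.2 over the 48 and 85.9 over all genes with a region. All 48 other genes had a shared region in the window, 37 of them over the gene (77.1%) and 20 within 1 kb of an end (41.7%), and their median density was 4.85 per 100 kb. Over all protein-coding genes these values were 89.6%, 56.4%, 27.0% and 4.27 per 100 kb. The 48 genes were not matched for size, and the over-gene share ran from 25.4% of genes under 10 kb to 93.2% of genes over 50 kb. The differences were not tested. The strongest were at Maml3, a coactivator of the Notch complex (77.2-fold and 100-fold), at Rfng, which glycosylates Notch (81.5-fold and 66.4-fold), at Spen, a corepressor of Rbpj (70.5-fold and 79.7-fold), and in the window of Dtx4, a ubiquitin ligase gene (62.3-fold and 66.1-fold). The region in the Dtx4 window (12446551 to 12448871) lay outside that gene (12466329 to 12502179). Genome-wide, the genes whose best region was nearest to that of Notch2 in log2 fold over both lists were Plekhg3 and Sptb (67.6-fold and 71.3-fold) and Sorl1 (67.6-fold and 70.6-fold). As Plekhg3 and Sptb had equal folds, their windows may hold the same region, and a region in a window may lie outside the gene.

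**Figure D4:**
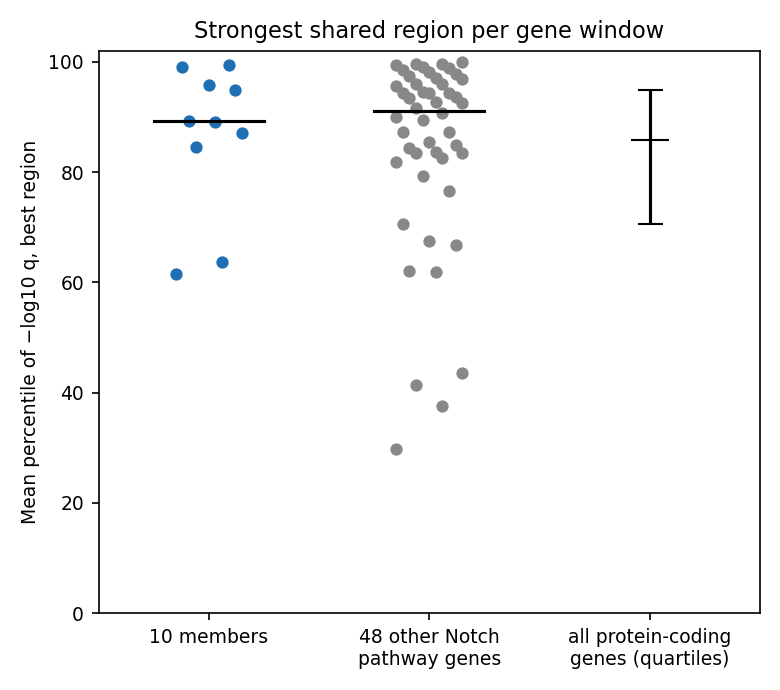
Mean percentile (of −log10 q, averaged over replicates 1 and 2) of the strongest shared region in each gene window, for the 10 genes, the 48 other Notch pathway genes and all protein-coding genes with a region. Points are genes and short lines are medians (89.2 and 91.2), and the bar on the right spans the 25th to 75th percentile of all genes (70.5 to 94.8) around a median of 85.9.

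Peaks without a partner in the other list had lower median folds than the shared regions, but some were strong. In the windows, 16 peaks of replicate 1 and 32 of replicate 2 had no partner, with median folds of 8.18 and 6.64, against 5.73 and 5.87 for all unpartnered peaks of the lists. The highest were a 38.2-fold peak of replicate 1 inside Slx4ip, at the far edge of the Jag1 window, and a 19.1-fold peak of replicate 2 beyond the far end of Dll1. The peak near Dll1 lay 111 bp from a 9.92-fold peak of replicate 1. At Rbpj, a 12.5-fold peak of replicate 1 and a 7.41-fold peak of replicate 2 lay 50 bp apart. Of the unpartnered peaks, 4 of replicate 1 and 15 of replicate 2 were no more than 1 kb away from any peak of the opposite list.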

How the data were processed

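ChIRP-seq libraries were made from sonicated nuclei by tagmentation and sequenced as paired reads, per the labels' protocols. The authors deposited 2 narrowPeak lists. Tools named in the submitters' processing notes are MACS2 2.1.1, Bowtie2 2.3.2 and Picard 2.9.2, with the build mm10. The sources used here do not give parameters, thresholds, the control of each call or the depth. The deposited values per peak are a fold enrichment (ratio), a −log10 q value, a score that follows it and the summit position. No peak of replicate 1 had a −log10 q under 1.35, and none of replicate 2 under 1.32.

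Peaks overlapping by at least 1 bp were joined into shared regions (97493, of which 97115 on 21 assembled chromosomes). Genes, promoters and microRNAs came from RefSeq tables of GRCm38.p6, without exons. The pooled lists hold no samples to test, so counts are set beside all protein-coding genes. The members and lists were chosen with earlier results of these data known. Named genes are the 10 members, neighbours under or nearer to their regions, the 4 other pathway genes with the strongest regions and the 3 genes most like the strongest member. Counting was tested on simulated data. The software was matplotlib 3.10.9, scipy 1.17.1, pandas 2.3.3 and numpy 2.4.6 under Python 3.11.15.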

Additional observations from a re-analysis of the deposited data

How the results depend on the processing

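Of 61 values under other settings, 48 stayed within 1.5 times the reported count or inside the reported interval, and 13 moved. With the 10000 peaks of highest −log10 q in each list, 3 of the 10 genes (Notch2, Heyl and Jag1) kept a shared region, against 20.6% of all genes, with 3 regions in all and 0 of the 10 genes with a region at an end, against 3.14% of all genes. Then 15 of the 48 other pathway genes had one, against the same 20.6% of all genes. Of 6 peaks of replicate 1 in the windows, 50% had a partner, against 65.7% of its 10000 peaks. With a reciprocal overlap of 50%, partnered shares fell to 52.9% in replicate 1 and 43.4% in replicate 2, against 41.8% and 36.6% of the whole lists. With summits within 200 bp they fell to 57.4% and 47%, against 48.9% and 42.8% of the whole lists. Both settings accept fewer pairs. The number of regions was 23 in gene spans alone, 30 with 5 kb either side and 79 with 50 kb either side. Using either list alone, without the need for a partner, gave 68 to 83 peaks in the windows and 4 of the 10 genes with a peak at a gene end in either list, against 32.9% of all genes in replicate 1 and 38.7% in replicate 2. Allowing a gap of up to 200 bp between peaks, chosen after seeing the data, gave 51 regions. No paired analysis was possible because each list stands for a whole replicate and no comparison rests on a test. Depth is unknown, so no floor is given for genes without a region.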

Other observations

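Long non-coding RNA genes lay under 6 of the 49 regions (12.2%), against 9.28% of all shared regions, a comparison chosen after the values were seen and not tested. They were Gm35978 beside the Notch1 start, Gm38585 at Notch3, Gm10510 at Dll1, 1700020N18Rik at Hes6 and Gm32561 at Hey1, the last with 2 regions. A protein-coding gene lay under 28 regions (57.1%), against 41.8% of all shared regions, and the windows were placed on such genes. In 5 cases this was a neighbour of the Notch gene: Slx4ip under 3 regions, and Per2 and Nt5c1a under 1 each.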
